A study of Rattus norvegicus with 28 samples.

Results

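The interleukin-6 (IL-6) cytokine family was followed in cultured rat glia through 10 genes, matched by exact symbol in the count tables: the ligand genes Il6, Lif, Il11, Osm and Clcf1, the receptor genes Il6st, Il6r, Lifr and Osmr, and the feedback inhibitor gene Socs3. The rule that picks them is the gene symbol and not a value. The astrocyte tables listed 10 of 10 members, among 20268 genes where ENV was tested and 20056 where LPS was. The microglial tables listed 9 of 10 among 23139 genes, and Clcf1 was not analysed here in microglia.

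The cells were primary cortical cultures prepared from Wistar pups on postnatal day 1, with no transgene or deletion named in the labels. Microglia were shaken from mixed flasks after 10 days and bound to CD11b/c beads, and they were stimulated 1 day after isolation, astrocytes 3 days after. The treated groups received either ENV, a recombinant retroviral envelope protein encoded by the HERV-W family of human endogenous retroviruses, at 1 µg/ml or the bacterial wall component lipopolysaccharide (LPS) at 100 ng/ml, and the vehicles were buffer for ENV and water (H2O) for LPS. All groups shared a medium with 10% fetal calf serum. The 4 microglial groups held 3 libraries each and the 4 astrocyte groups 4 each. How long the cells were stimulated, and whether replicates came from separate litters, is not stated in the labels. The p-values therefore measure only how much these libraries varied, and that variation may be technical.

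Cytokines of this family signal through gp130, the shared receptor subunit encoded by Il6st. IL-6 first binds its own receptor (Il6r), which then joins gp130, whereas leukemia inhibitory factor (Lif) uses gp130 with the LIF receptor (Lifr), and oncostatin M (Osm) uses gp130 with either Lifr or the oncostatin M receptor (Osmr). Engaged receptors activate JAK kinases and STAT3, and STAT3 induces Socs3, whose product binds gp130 and the JAKs and dampens the signal. In the brain these cytokines are known for their part in glial inflammation and in the reactive state of astrocytes.

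The sequences before the start sites of Il6 and Il11 are shown because, of the ligand genes that had an entry, Il6 was the member with the widest range of levels and Il11 the one that stayed at a few counts. RefSeq promoter entries on build GRCr8 matched 7 of the 10 members, and Lif, Osm and Clcf1 had none. The 250 bases before each start are given 5′ to 3′ on the gene's strand, and capitals mark every match, on either strand, to GGG and TTCC with 3 bases between them (the NF-kB site), TTNNGCAA (C/EBP), TGACGTCA (the cyclic AMP response element), TGANTCA (AP-1) or TTCNNNGAA (STAT).
Il6, chr4:5894576-5894825, minus strand: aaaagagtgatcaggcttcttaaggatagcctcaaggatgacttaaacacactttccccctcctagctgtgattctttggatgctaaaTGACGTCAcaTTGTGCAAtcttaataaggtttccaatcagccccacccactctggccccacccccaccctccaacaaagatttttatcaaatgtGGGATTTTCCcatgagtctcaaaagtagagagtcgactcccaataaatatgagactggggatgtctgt
Il11, chr1:78098372-78098621, plus strand: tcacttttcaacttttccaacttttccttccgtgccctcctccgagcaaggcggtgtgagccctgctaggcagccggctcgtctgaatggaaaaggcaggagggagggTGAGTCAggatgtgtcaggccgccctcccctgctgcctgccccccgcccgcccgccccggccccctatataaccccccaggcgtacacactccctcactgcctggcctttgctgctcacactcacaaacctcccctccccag
The Il6 window held 3 matches, GGGATTTTCC at -68 to -59 from the start, TTGTGCAA at -152 to -145 and TGACGTCA at -162 to -155. The letters of the NF-kB site occurred in 4.53% of 33469 rat promoter windows of the same length, those of C/EBP in 9.22% and the cyclic AMP response element in 1.59%. The Il11 window held 1 AP-1 match, TGAGTCA at -142 to -136, and the Osmr window 1 as well. AP-1 letters occurred in 6.34% of all windows and STAT letters in 7.67%, and 0 of the 7 members' windows held the STAT letters. These matches describe letters only, and the windows of Il6st, Il6r, Lifr, Osmr and Socs3 began inside the outer bounds of the gene, so other start sites of those genes were not covered.

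Values are deposited read counts scaled to library size (CPM, reads per 1000000) with a normalization factor per library (TMM), computed separately in microglia and astrocytes, so CPM set across the cell types are levels from separately scaled tables. Microglial libraries held 26513999 to 42724111 reads and astrocyte libraries 23742228 to 35326938, and a count of 0 allows up to 3 counts, which is 0.0649 to 0.124 CPM (counting error only). The labelled cell types carried their markers: 13 listed microglial markers summed to 6682 to 11790 CPM in microglial libraries and 145.8 to 835.2 in astrocyte libraries, and 12 astrocyte markers to 2589 to 11180 CPM in astrocyte libraries and 28.04 to 263.8 in microglial ones. Fibroblast and mural cell markers summed to 1677 to 11790 CPM in astrocyte libraries against at most 17.58 in microglia. Several libraries stood apart. LPS-treated microglia replicate 3 had the lowest microglial marker sum (6682 CPM against 9655 and 11790 in the other two), and H2O-treated microglia replicate 3 held oligodendrocyte-lineage markers at 165 CPM against 17.11 and 17.05. The buffer-treated microglia held more of these markers than any of them, at 269 to 278.6 CPM, against 84.24 to 162.4 with ENV and 6.174 to 42.84 with LPS. Endothelial markers averaged 62.93 CPM in microglia with buffer, 175.2 with ENV, 99.95 with H2O and 233.2 with LPS, and markers of granulocytes and blood monocytes 77.07, 290.2, 93.41 and 203.2 CPM. Nearly all of the latter was the single gene Csf3r, at 76.48, 284, 93.01 and 198.6 CPM. Of 7 listed endothelial markers, 4 had a higher and 3 a lower mean with ENV, and 3 and 3 with LPS. The part of such cells, or of marker genes changing within microglia, in the microglial results was not tested. Astrocytes with LPS formed pairs, with astrocyte marker sums of 2589 and 2841 CPM in replicates 1 and 2 against 7521 and 8468 in replicates 3 and 4. The same split was present with H2O (5731 and 6744 against 9353 and 11180 CPM) and with ENV (4603 and 5502 against 7358 and 8430). With buffer the ranges overlapped (9076 and 10070 against 9652 and 11180). Between the 2 astrocyte sets, same-numbered vehicle libraries 3 and 4 differed by a chi-square per degree of freedom of 4.704 and 3.608, against 35.94 or more for differently numbered ones. Treated libraries 3 and 4 differed by 20.39 and 6.504 between the sets, against 62.1 or more. Same-numbered libraries 1 and 2 differed by 67.87 and 48.21 (vehicle) and 89.83 and 75.61 (treated), within the range of differently numbered ones. Whether the sets shared cultures is not stated in the labels, so the ENV and LPS comparisons in astrocytes cannot be taken as independent.

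Of the ligand genes, Il6 rose with both stimuli in both cell types, Lif in all but LPS-treated microglia and Clcf1 in LPS-treated astrocytes, while Osm fell in ENV-treated microglia. In microglia Il6 was near absence before stimulation. Buffer-treated libraries held 0, 0.0872 and 0 CPM, which is 3 reads in all, and ENV-treated libraries 9.42, 9.87 and 5.34 CPM, or 731 reads. The summed reads gave a ratio of 269 with a counting interval of 91.6 to 1310 (95%, exact), and the groups did not overlap. The fitted log2 change was 7.90 ± 0.70 (SE; edgeR adjusted p = 4.99e-04), a value that depends on the prior count and moved to 10.98 without buffer replicate 2, the library that held the 3 reads.

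With LPS the microglial Il6 level was uneven. H2O-treated libraries held 0.129, 0.0967 and 0.0432 CPM and LPS-treated ones 16.8, 7.02 and 171 CPM. Every treated library lay above every vehicle library, but replicate 3 was far above the other two. The log2 change was 9.47 ± 1.70 (edgeR adjusted p = 0.0113), and it was 7.07 ± 0.59 (adjusted p = 0.00173) without LPS replicate 3. Without H2O replicate 1 or 2 the adjusted p was 0.0576 or 0.0574, past the threshold of 0.05 used throughout.

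In astrocytes Il6 was measurable before stimulation, at 0.244, 1.09, 0.587 and 0.297 CPM with buffer. ENV-treated libraries held 40.6, 4.42, 30.7 and 39.4 CPM, so replicate 2 was low while the groups stayed apart. Il6 rose by 5.73 ± 0.80 on the log2 scale (edgeR adjusted p = 0.00299). H2O-treated astrocytes held 0.245, 0.982, 0.756 and 0.634 CPM and LPS-treated ones 5.69, 6.07, 31 and 29 CPM, a rise of 4.79 ± 0.77 on the log2 scale (adjusted p = 0.0141). Without H2O replicate 3 the adjusted p was 0.0602. The 2 lower LPS values were those of replicates 1 and 2.

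Lif, whose product is known as a trophic cytokine for neurons and oligodendrocytes, had higher levels in the astrocyte cultures than in microglia. Fibroblast and mural cell markers averaged 8320 CPM with buffer and 5688 with H2O in the astrocyte cultures, and the part of such cells in the Lif reads was not tested. Astrocytes with buffer held 19.9, 24.0, 22.3 and 38.0 CPM and with ENV 106, 56.1, 66.9 and 155 CPM, with no overlap. Lif rose by 1.89 ± 0.35 on the log2 scale (edgeR adjusted p = 0.00915). With H2O the astrocyte values were 26.2, 22.8, 24.1 and 36.4 CPM and with LPS 193, 150, 67.8 and 134 CPM, a log2 change of 2.32 ± 0.31 (adjusted p = 0.00862). The 2 highest LPS values came from replicates 1 and 2, the libraries with the lower Il6, so Lif and Il6 were ordered differently among the LPS-treated libraries.

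Microglial Lif was low and rose with ENV from 0.325, 0.232 and 0.209 CPM to 3.07, 2.39 and 1.65 CPM. The log2 change was 3.19 ± 0.38 (edgeR adjusted p = 0.0014), on 25 reads in the buffer group and 209 in the ENV group. With LPS it went from 0.542, 0.339 and 0.497 CPM to 1.74, 0.657 and 13.2 CPM. The groups did not overlap, but the log2 change of 3.49 ± 1.13 missed the threshold (adjusted p = 0.0623) and was 1.42 ± 0.56 (adjusted p = 0.106) without LPS replicate 3. DESeq2 (adjusted p = 0.00229), a joint fit of the 4 microglial groups (0.0136) and the fit without LPS replicate 2 (0.0464) called it.

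Osm, which encodes a cytokine made mainly by myeloid cells, was the ligand gene with the opposite distribution. Microglia with buffer held 13.4, 13.0 and 12.3 CPM, those with ENV 9.27, 7.23 and 6.67, those with H2O 9.65, 8.66 and 9.01, and those with LPS 9.74, 7.02 and 9.53 CPM. ENV-treated microglia lay below the buffer group without overlap, and Osm fell by 0.75 ± 0.17 on the log2 scale (edgeR adjusted p = 0.0178). The call was lost without buffer replicate 1 or 2 or ENV replicate 2 or 3 (adjusted p 0.0562 to 0.0678). The LPS and H2O groups overlapped, with a log2 change of -0.03 ± 0.18 (adjusted p = 0.902). The buffer group was also above the H2O group without overlap, by 0.57 ± 0.13 (adjusted p = 0.259; DESeq2 adjusted p = 0.00832), so the ENV-treated libraries lay below a vehicle group that was itself the highest of the 4.

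Astrocyte libraries held Osm at 0.0311 to 1.20 CPM, or 1 to 34 reads. With ENV it was 1.06 (log2) higher with an adjusted p of 0.446, and the LPS comparison had too few reads for a test. Microglial markers were present in the same libraries at 145.8 to 835.2 CPM, and their part in these Osm reads was not tested.

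Clcf1, the gene of cardiotrophin-like cytokine factor 1, was measured in astrocytes at 20.2, 23.4, 28.6 and 36.1 CPM with buffer and 48.0, 38.2, 31.5 and 70.1 CPM with ENV. The groups overlapped through ENV replicate 3. The log2 change was 0.81 ± 0.27 (edgeR adjusted p = 0.0752), and it passed with the replicate number as a block (0.79 ± 0.18, adjusted p = 0.0216). With H2O the values were 26.5, 28.8, 27 and 35.6 CPM and with LPS 59.7, 60.5, 36.5 and 67.0 CPM, without overlap. Clcf1 rose by 0.93 ± 0.19 on the log2 scale with LPS (adjusted p = 0.0322), but the call was lost when any of 6 libraries was left out: H2O replicate 1, 2 or 3 or LPS replicate 1, 2 or 4 (adjusted p 0.0715 to 0.112).

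Il11 encodes interleukin-11, known as a cytokine of stromal cells. It was counted 0 times in all 6 buffer- and ENV-treated microglial libraries, once with H2O and 5 times with LPS, each of those in a single library. Astrocyte libraries held 0 to 24 reads, with group totals of 15 (buffer), 23 (ENV), 18 (H2O) and 36 (LPS). Il11 did not reach the count filter in any comparison, and a change was not detectable at this depth.

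**Figure D1:**
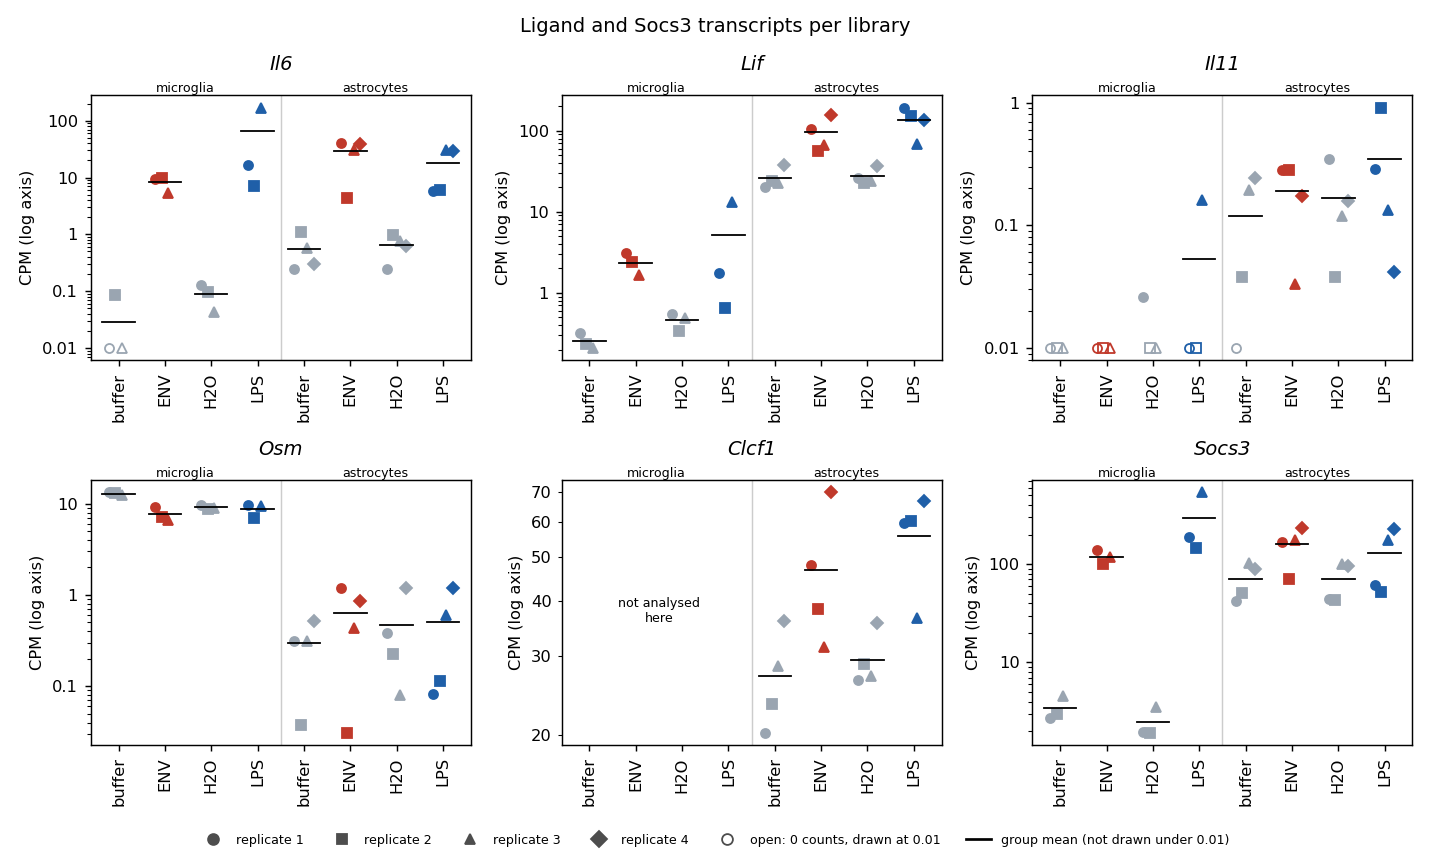
CPM (log axis) of 5 ligand genes and Socs3 in each library of the 8 groups, with marker shapes for replicate numbers, bars for group means and open markers for 0 counts. Il6 in microglia starts at 0 to 0.129 CPM and reaches 171 CPM in LPS replicate 3, Osm is high in microglia alone, and Socs3 starts lower in microglia than in astrocytes.

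Of the receptor genes, Il6st, which encodes gp130, fell in microglia and rose in astrocytes with ENV, Osmr rose with ENV in both cell types and with LPS in microglia, and Il6r rose in astrocytes with ENV. In microglia Il6st was 63.3, 50.7 and 47.9 CPM with buffer and 27.1, 27.5 and 33.4 CPM with ENV, without overlap, a fall of 0.89 ± 0.15 on the log2 scale (edgeR adjusted p = 0.00601). A joint fit of the 4 microglial groups gave an adjusted p of 0.0606. Over the same groups the oligodendrocyte-lineage marker sum went from 272.5 to 133.7 CPM, the endothelial one from 62.93 to 175.2 CPM and that of granulocytes and monocytes from 77.07 to 290.2 CPM. The last was nearly all Csf3r (76.48 to 284 CPM), and of 7 endothelial markers 4 had a higher and 3 a lower mean with ENV. The part of such cells, or of marker genes changing within microglia, in the Il6st values was not tested. With H2O the microglial values were 43.6, 47.7 and 64.3 CPM and with LPS 21.6, 24.5 and 51.8 CPM. Replicate 3 was the highest library of both groups, and the groups overlapped through it. The log2 change of -0.66 ± 0.36 missed the threshold (adjusted p = 0.208), while the fit with replicate as a block called it lower (-0.74 ± 0.17, adjusted p = 0.0341), as did the fit without LPS replicate 3 (-1.13 ± 0.22, adjusted p = 0.0156).

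Astrocyte Il6st was even across buffer libraries at 296, 289, 269 and 297 CPM and reached 565, 404, 813 and 800 CPM with ENV. The groups were apart and the log2 change was 1.18 ± 0.21 (edgeR adjusted p = 0.00751). With H2O it was 236, 245, 290 and 280 CPM and with LPS 377, 337, 707 and 852 CPM. These groups did not overlap either, but the libraries with LPS fell into replicates 1 and 2 against 3 and 4, and the log2 change of 1.13 had an adjusted p of 0.0769. With the replicate block Il6st rose by 1.02 ± 0.21 (adjusted p = 0.0297).

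Il6r, the gene of the IL-6-binding subunit, was a microglial transcript by level and changed in astrocytes. Microglia held 95.7, 83.8 and 116 CPM with buffer against 84.5, 83.9 and 84.6 CPM with ENV, overlapping ranges with a log2 change of -0.23 ± 0.14 (edgeR adjusted p = 0.237). With H2O they held 134, 172 and 165 CPM and with LPS 127, 96.3 and 210 CPM, also overlapping (-0.11 on the log2 scale). The 2 vehicle groups did not overlap: Il6r was 0.61 ± 0.16 (log2) lower with buffer than with H2O, with an adjusted p of 0.275 by edgeR and 0.014 by DESeq2. The same vehicle groups, which also differed in Osm, held oligodendrocyte-lineage markers at 272.5 CPM (buffer) and 66.39 CPM (H2O) on average. The H2O mean rested on replicate 3 (165 CPM against 17.11 and 17.05). The part of such cells in the vehicle differences of Il6r and Osm was not tested.

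Astrocytes held Il6r at 19.6, 12.1, 16.2 and 24.4 CPM with buffer and at 39.5, 24.9, 46.4 and 76.3 CPM with ENV, so the lowest treated library was just above the highest vehicle library. The log2 change was 1.38 ± 0.34 (edgeR adjusted p = 0.0273; 1.33 ± 0.13, adjusted p = 0.0012, with the replicate block). The call was lost without buffer replicate 1, 2 or 3 or ENV replicate 1 or 3 (adjusted p 0.0514 to 0.0822). With H2O the values were 13.9, 12.6, 16 and 25.9 CPM and with LPS 26.4, 23.0, 46.1 and 75.1 CPM. These ranges overlapped, every same-numbered pair rose (1.83- to 2.90-fold), and the log2 change of 1.33 had an adjusted p of 0.111, or of 0.00684 with the replicate block (1.23 ± 0.16). Summed microglial markers averaged 580 CPM with buffer and 319.7 with ENV, and 488 with H2O and 257.8 with LPS. The sums were lower in the treated library of every same-numbered pair, in 8 of 8. Single markers were less uniform: of 13, 4 had a higher and 9 a lower mean with ENV, and 0 and 13 with LPS. The part of microglia in the astrocyte Il6r reads was not tested.

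Lifr, the LIF receptor gene, did not pass the threshold in the 3 comparisons where it was tested, and with LPS in microglia it had too few reads for a test. Astrocytes held 12.3, 8.14, 8.17 and 10.6 CPM with buffer and 10.7, 8.67, 13.9 and 12.5 CPM with ENV (log2 change 0.24, edgeR adjusted p = 0.444). With H2O they held 7.62, 7.82, 8.88 and 9.71 CPM and with LPS 7.05, 5.88, 11.1 and 13.1 CPM, a log2 change of 0.14. Both pairs of groups overlapped. Microglial Lifr was scattered within groups: 0.877, 2.24 and 0.329 CPM with buffer, 0.336, 1.29 and 1.91 with ENV, 0.0258, 0.0242 and 1.45 with H2O, and 0, 0 and 0.544 with LPS. The microglial ENV comparison gave a log2 change of 0.03 ± 0.78 (edgeR adjusted p = 0.977). In the H2O and LPS groups replicate 3 held nearly all the Lifr reads. It was also the library of each group with the highest oligodendrocyte-lineage marker sum, 165 CPM in the H2O group and 42.84 in the LPS group. In the buffer group that sum was even (270, 278.6 and 269 CPM) while Lifr was not, and with ENV it was 84.24, 162.4 and 154.4 CPM. The part of those cells in the Lifr reads was not tested.

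Osmr, the oncostatin M receptor gene, was abundant in the astrocyte cultures and near the detection limit in unstimulated microglia, and it rose in both. The part of fibroblasts and mural cells in its level in the astrocyte cultures was not tested. Astrocytes held 98.7, 113, 106 and 115 CPM with buffer and 288, 181, 513 and 436 CPM with ENV, a log2 change of 1.73 ± 0.29 (edgeR adjusted p = 0.00607) without overlap. With H2O they held 86.1, 105, 104 and 108 CPM and with LPS 128, 106, 405 and 396 CPM. The LPS-treated libraries split into 2 near the vehicle level and 2 far above it, and the log2 change of 1.38 ± 0.45 missed the threshold (adjusted p = 0.129; 0.098 with the replicate block, 0.0241 with DESeq2 and 0.0421 in a joint fit of the 4 groups).

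Microglial Osmr went from 0.162, 0.436 and 0.269 CPM with buffer to 2.06, 1.82 and 2.07 CPM with ENV, from 29 to 177 reads. Osmr rose by 2.74 ± 0.38 on the log2 scale (edgeR adjusted p = 0.00255). From H2O to LPS it went from 0.129, 0.0726 and 0.238 CPM to 2.89, 2.45 and 3.55 CPM, from 19 to 286 reads, a log2 change of 4.31 ± 0.54 (adjusted p = 0.00431). Both treated groups were far above their vehicles and even between libraries, replicate 3 with LPS included. Astrocyte markers in the same libraries went both ways. Their sums, mostly Slc1a3, were 206.9 to 261.1 CPM with buffer and 120.7 to 232.4 with ENV, and 64.21 to 263.8 with H2O and 28.04 to 55.69 with LPS. Of the 12 markers, 5 had a higher mean with ENV, among them Gfap (23.3 to 58 CPM) and Slc1a2 (2.85 to 5.25 CPM), and 5 had a higher mean with LPS, among them Aldoc (2.33 to 4.81 CPM) and Sox9 (0.531 to 1.11 CPM), while Gjb6 was at 0 in all 4 groups. The part of astrocytes in the microglial Osmr reads was not tested.

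**Figure D2:**
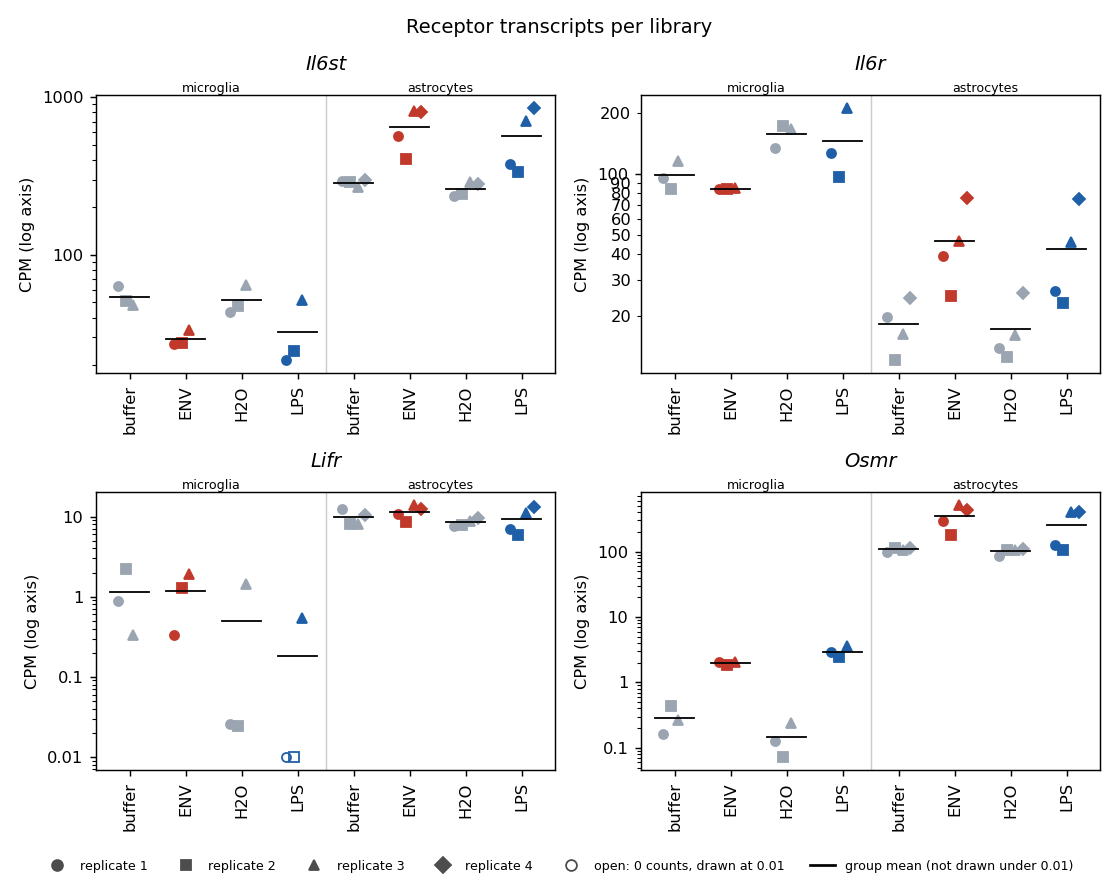
CPM (log axis) of the 4 receptor genes in each library, with marker shapes for replicate numbers, bars for group means and open markers for 0 counts. Il6st and Osmr lie higher in astrocytes and rise there with ENV, Il6r lies higher in microglia, and Lifr in microglia with H2O or LPS rests on replicate 3.

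Socs3, the feedback inhibitor gene, was the member with the clearest rise in microglia. It went from 2.73, 2.96 and 4.51 CPM with buffer to 139, 99.7 and 117 CPM with ENV, a log2 change of 5.11 ± 0.25 (edgeR adjusted p = 1.2e-04). From H2O to LPS it went from 1.96, 1.93 and 3.48 CPM to 189, 145 and 541 CPM, a log2 change of 6.89 ± 0.69 (adjusted p = 0.00225), or 6.12 ± 0.35 (adjusted p = 7.07e-04) without LPS replicate 3. The treated and vehicle groups were far apart in both sets.

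Astrocyte Socs3 was already at 42.3, 50.5, 102 and 89.8 CPM with buffer, with replicates 3 and 4 above 1 and 2. With ENV it was 169, 70.2, 174 and 233 CPM, and the groups overlapped. The log2 change of 1.20 ± 0.40 had an adjusted p of 0.0727 by edgeR and of 0.0197 with the replicate block (1.17 ± 0.25). The treated library was 1.39- to 3.98-fold above the vehicle library of its number. With H2O the values were 44.1, 42.9, 101 and 95 CPM and with LPS 61.0, 51.7, 177 and 226 CPM, with the same split by number in both groups. The log2 change was 0.88 with an adjusted p of 0.411, and 0.71 ± 0.17 with an adjusted p of 0.0423 with the block.

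Counted over all members, 6 of 8 tested members passed with ENV in microglia, 4 higher and 2 lower, while 30.9% of the 12844 genes in that test passed (16.2% higher, 14.7% lower; 39.2% and 19.7% lower with the block, which left the members' count at 6). LPS in microglia called 3 of 7, all higher, against 29.8% of 12229 genes (16% higher, 13.8% lower), and the block added Il6st among the lower (4 of 7, against 30.3% of genes, 15.1% lower). ENV in astrocytes called 5 of 9, all higher, against 17.9% of 14941 genes (9.52% higher, 8.35% lower), and 7 of 9 with the block against 29.1%. LPS in astrocytes called 3 of 8, all higher, against 5.34% of 14710 genes (2.64% higher, 2.69% lower), and 6 of 8 with the block against 17.7% (7.89% higher, 9.86% lower). The median log2 change of the tested members was 1.39 (microglia, ENV), 3.49 (microglia, LPS), 1.20 (astrocytes, ENV) and 1.23 (astrocytes, LPS), against medians of all tested genes between -0.03 and 0.03. Members that passed the filter on low counts in a single group are among these, so the counts describe the tested members and not the family as a whole.

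**Figure D3:**
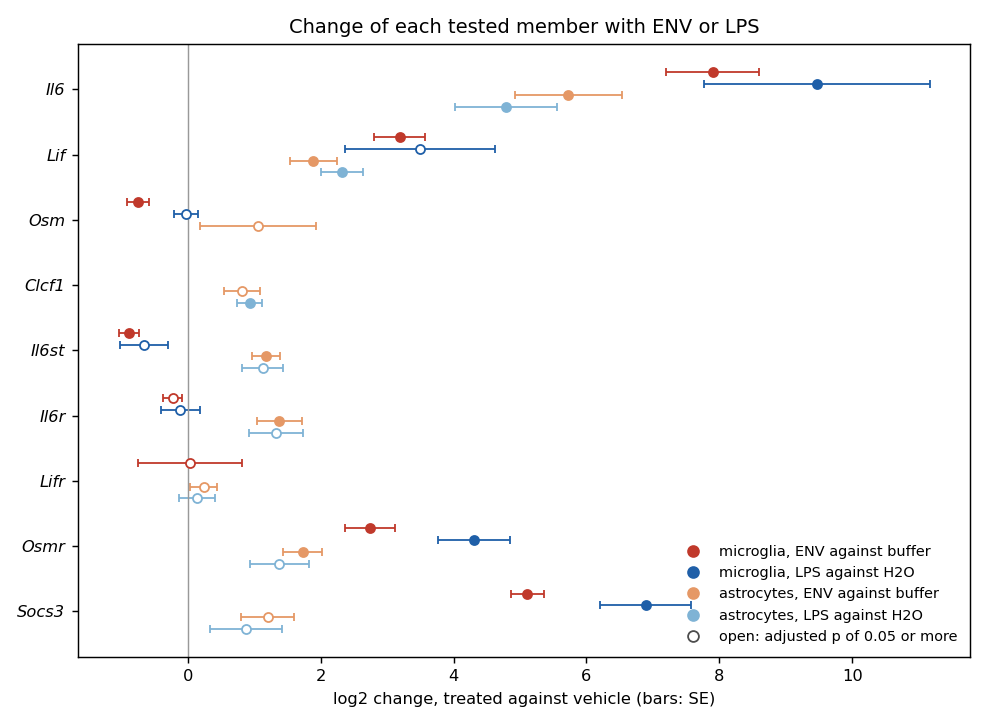
Log2 change of each tested member in 4 comparisons (points; bars are standard errors), with open points for an adjusted p of 0.05 or more. Il6, Lif, Osmr and Socs3 lie to the right of 0 in every comparison, whereas Il6st and Il6r lie left of 0 in microglia and right of 0 in astrocytes.

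The astrocyte values were read within each replicate number as well, because same-numbered libraries deviated together. Il6 rose 166-, 4.04-, 52.3- and 132-fold with ENV in pairs 1 to 4 and 23.2-, 6.18-, 41- and 45.7-fold with LPS. Osmr rose 2.92-, 1.60-, 4.83- and 3.80-fold with ENV and 1.49-, 1.01-, 3.88- and 3.66-fold with LPS. Il6st had its 2 larger folds in pairs 3 and 4 with each stimulus (3.02 and 2.70 with ENV, 2.44 and 3.04 with LPS). Lif and Clcf1 had the other order with LPS: Lif rose 7.36- and 6.59-fold in pairs 1 and 2 against 2.81- and 3.69-fold in pairs 3 and 4. Every pair was above 1 for the genes Il6, Lif, Clcf1, Il6st, Il6r, Osmr and Socs3 with both stimuli, with Osmr in pair 2 with LPS the nearest to 1. Astrocyte marker sums were lower in the treated library of every pair, with means of 9994 against 6473 CPM for ENV and 8252 against 5355 CPM for LPS. Most of that was Gfap, at 5745 against 2068 CPM and 4459 against 1660 CPM, and the markers did not move as a unit: 9 of 12 had a lower mean with each stimulus, and Aqp4 (1012 to 2518 CPM and 806 to 1835 CPM), Aldh1l1 and Slc1a2 a higher one. The summed fibroblast and mural cell markers averaged 8320 CPM with buffer and 2592 with ENV, and 5688 with H2O and 2467 with LPS. The largest parts were Tagln (3630 to 1122 and 2551 to 1118 CPM) and Acta2 (2191 to 214.4 and 1153 to 213.2 CPM). Of those 12 markers, 9 had a lower mean with each stimulus. Dcn, Lum and Dpt, all at low levels, had a higher one. The part of astrocytes, fibroblasts and mural cells in the changes of the members was not tested. In bulk cultures fewer cells of a type and less RNA per cell cannot be told apart.

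**Figure D4:**
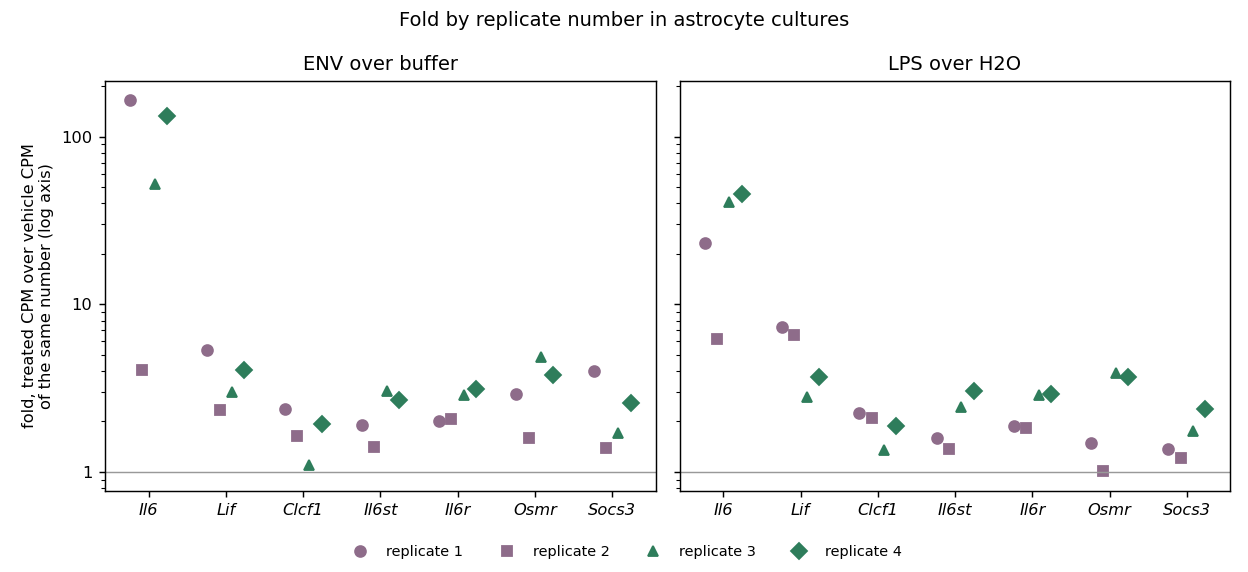
Fold of the treated over the vehicle library of the same replicate number in astrocytes (log axis), for ENV over buffer and LPS over H2O; the line marks 1. Il6 ranges from 4.04- to 166-fold with ENV, and with LPS the folds of Il6st, Osmr and Socs3 are larger in replicates 3 and 4 while those of Lif are larger in replicates 1 and 2.

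Before stimulation the microglial and astrocyte cultures differed in their levels of the family's genes. Cell type, gene table and time since isolation differed together in these comparisons and cannot be told apart. With buffer, microglia had more Osm (log2 difference 5.98 ± 0.47, edgeR adjusted p = 1.6e-05) and Il6r (3.04 ± 0.25, adjusted p = 1.78e-05) than astrocytes. They had less Osmr (-7.91 ± 0.27), Lif (-6.06 ± 0.35), Socs3 (-3.78 ± 0.40), Lifr (-2.49 ± 0.56) and Il6st (-1.81 ± 0.13), with adjusted p from 5.87e-07 to 0.00455. All 7 tested members were called, in a comparison that called 70% of 12973 genes (33.5% higher, 36.5% lower). With H2O 8 of 8 tested members were called in the same directions, where 70.9% of 12913 genes were (33.2% higher, 37.7% lower) and the median gene lay at -0.11, and Il6 was among the lower (-2.32 ± 0.64, adjusted p = 0.014). The Lifr difference with H2O (-3.50, adjusted p = 0.0385) was -7.73 without H2O-treated microglia replicate 3 and lost its call without microglial replicate 1 or 2 or any single astrocyte library.

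The order of group means changed with stimulation for Il6 and Socs3. Il6 means ran from LPS-treated microglia (64.8 CPM) through ENV-treated astrocytes (28.8), LPS-treated astrocytes (17.9) and ENV-treated microglia (8.21), and each of these 4 overlapped the next in the ranges of their libraries. H2O- and buffer-treated astrocytes followed (0.654 and 0.555), then microglia with H2O (0.0897) and with buffer (0.029). Socs3 was highest in LPS-treated microglia (292 CPM), then in ENV- and LPS-treated astrocytes (161 and 129), ENV-treated microglia (118), buffer- and H2O-treated astrocytes (71.1 and 70.7), and microglia with buffer (3.40) and H2O (2.46). Its 5 highest groups each overlapped the next. For Lif every astrocyte group lay above every microglial group, from 136 CPM (LPS) to 26.1 (buffer) in astrocytes and from 5.19 (LPS) to 0.256 (buffer) in microglia. Il6st and Osmr had the same division, with 262.6 CPM or more in astrocyte group means against 53.98 or less in microglia for Il6st, and 100.8 or more against 2.96 or less for Osmr.

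Whether a stimulus acted differently in the 2 cell types was tested as an interaction over the genes listed in both. Gene table and time since isolation differed along with cell type, and the test cannot tell them apart. For ENV, 3 of 8 tested members differed, where 14.9% of 13378 genes did (6.87% higher, 8.07% lower). The Socs3 change was larger in microglia, by 3.90 ± 0.56 (edgeR adjusted p = 7.61e-04), the Il6st change was lower by 2.08 ± 0.29 (adjusted p = 6.6e-04) and the Il6r change was lower by 1.62 ± 0.44 (adjusted p = 0.0262). The Il6r call was lost without any 1 of 6 libraries (adjusted p 0.0511 to 0.0644). With the block Lif (1.35 ± 0.38, adjusted p = 0.0339) and Osm (-1.81 ± 0.37, adjusted p = 0.00878) joined them, 5 of 8 against 24.8% of genes (11.6% higher, 13.2% lower). The Il6 changes, 7.90 in microglia and 5.73 in astrocytes, differed by 2.19 ± 1.54 (adjusted p = 0.376), within their error.

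For LPS, 3 of 8 members differed between the cell types, where 12.5% of 13284 genes did (5.32% higher, 7.14% lower) and the median gene lay at -0.12. Socs3 (6.01 ± 0.93, adjusted p = 0.00202) and Osmr (2.90 ± 0.74, adjusted p = 0.0261) changed more in microglia, and Il6st less (-1.79 ± 0.53, adjusted p = 0.0446), all by edgeR. Without H2O-treated microglia replicate 1 or 2 only Socs3 passed (Osmr adjusted p 0.0678 and 0.0711), and the Il6st call was lost in 11 of 14 fits that left out a library (adjusted p up to 0.105). The block called 5 of 8, against 22.8% of genes (9.11% higher, 13.7% lower), and added Il6 (4.42 ± 1.31, adjusted p = 0.0446) and Il6r (-1.42 ± 0.31, adjusted p = 0.0164).

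**Figure D5:**
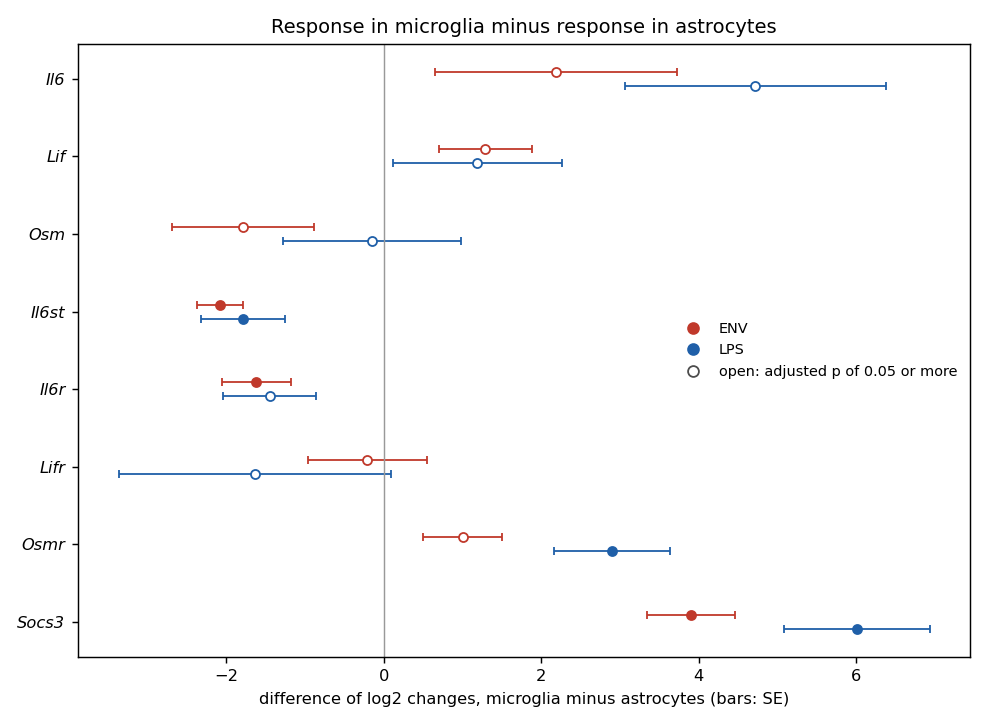
Log2 change in microglia minus log2 change in astrocytes for each member tested in both cell types (points; bars are standard errors), for ENV and LPS, with open points for an adjusted p of 0.05 or more. Socs3 lies furthest to the right (3.90 and 6.01) and Il6st on the left (-2.08 and -1.79).

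The ENV response was also set against the LPS response within each cell type. In microglia 0 of 8 members differed by edgeR, where 0 of 13270 genes did (0%). At an unadjusted p under 0.05 there were 937 genes and 3 members, and DESeq2 called 67 genes and 0 members. The 3 members were Osm, Osmr and Socs3, named after their values were seen, with differences (ENV minus LPS) of -0.68 ± 0.24, -1.54 ± 0.65 and -1.76 ± 0.65 and adjusted p of 0.689, 0.693 and 0.693. In astrocytes 0 of 9 members and 0 of 15496 genes differed by edgeR (0%), 76 genes and 0 members had an unadjusted p under 0.05, and DESeq2 called 0 genes. The differences of the astrocyte members ran from -0.44 ± 0.48 (Lif) to 0.96 ± 1.39 (Osm), so that sizeable differences could not be detected with these errors. Vehicles differed in 0 of 6 microglial members by edgeR (0% of 12900 genes; 2 members and 1946 genes at an unadjusted p under 0.05; 2 members and 679 genes by DESeq2). In astrocytes they differed in 0 of 8 (0% of 14876 genes, with 125 genes and 0 members at an unadjusted p under 0.05 and 0 genes by DESeq2). Without H2O-treated microglia replicate 3 the vehicle comparison in microglia called 1650 genes, Lifr among them (5.43 ± 1.22, adjusted p = 0.0381).

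Around the members, the rest of the pathway was counted in fixed lists. The shares to read the counts against are those of all genes, 30.9% (microglia, ENV), 29.8% (microglia, LPS), 17.9% (astrocytes, ENV) and 5.34% (astrocytes, LPS), or 39.2%, 30.3%, 29.1% and 17.7% with the block. Of the further family ligands and receptors, Ebi3, the shared subunit gene of interleukins 27 and 35, rose in all 4 comparisons: by 1.21 (microglia, ENV), 1.56 (microglia, LPS), 2.82 (astrocytes, ENV) and 2.14 (astrocytes, LPS) on the log2 scale, with edgeR adjusted p of 0.0406, 0.0149, 0.0108 and 0.0172. Cntfr, the receptor gene for ciliary neurotrophic factor, fell in astrocytes by 1.00 ± 0.17 with ENV (adjusted p = 0.00589) and by 0.93 ± 0.17 with LPS (adjusted p = 0.0198). Il27 rose in LPS-treated microglia by 1.36 (adjusted p = 0.0359). These were the called genes among 5, 4, 7 and 7 tested, in the order given above, with list medians of -0.36, 0.44, -0.52 and -0.43, and with so few genes tested the counts are not set against those shares. The block called 3 lower in place of 1 in ENV-treated astrocytes and added 1 lower in ENV-treated microglia.

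JAK, STAT and adaptor genes, 10 tested in each comparison, were called higher in 5 cases and lower in 0 with ENV in microglia, in 4 and 0 with LPS in microglia, in 6 and 1 with ENV in astrocytes and in 0 and 1 with LPS in astrocytes (3 and 1 with the block). Stat3 itself rose by 0.97 ± 0.11, 0.88 ± 0.14 and 1.11 ± 0.23 on the log2 scale in the first 3 (edgeR adjusted p = 0.00137, 0.0081 and 0.0133). Jak2 rose most in ENV-treated astrocytes, from 60.6 to 335 CPM (2.48 ± 0.40, adjusted p = 0.00516), beside Stat5a (2.01 ± 0.33, adjusted p = 0.00547). Sos1, a Ras exchange factor gene, rose by 1.94 ± 0.15 and 1.84 ± 0.25 in microglia with ENV and LPS, and the adaptor gene Grb2 by 0.83 ± 0.14 and 0.76 ± 0.17. Jak2 rose there by 0.84 ± 0.25 and 0.87 ± 0.21, and Stat5b in ENV-treated astrocytes by 0.44 ± 0.12. Gab1, an adaptor gene, rose with ENV in microglia (1.14 ± 0.16) and fell in astrocytes with ENV (-0.88 ± 0.14) and LPS (-0.77 ± 0.12). The list medians were 0.55, 0.12, 0.34 and 0.35, beside -0.03, -0.02, 0.02 and 0.03 over all genes.

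The STAT3 target list was called 10 higher and 1 lower of 18 tested with ENV in microglia (14 and 1 with the block). With LPS in microglia it was 9 and 0 of 18. In astrocytes it was 8 and 1 of 17 with ENV (9 and 1 with the block). With LPS in astrocytes it was 1 and 0 of 17 (6 and 1 with the block). The list medians were 1.22, 0.86, 0.55 and 0.56 in that order. Lcn2, the gene of the iron-carrier-binding protein lipocalin-2, led in microglia, from 0.294 to 1150 CPM with ENV (11.90 ± 0.40) and from 0.299 to 837 CPM with LPS (11.52 ± 1.28), followed by the fibrinogen-like gene Fgl2 (5.49 and 5.92). Next in microglia were Steap4 (3.94 ± 0.42), Bcl3 (2.12 ± 0.15) and the kinase gene Pim1 (2.12 ± 0.20) with ENV, and Vegfa (2.95 ± 0.66), Pim1 (2.86 ± 0.46) and Bcl3 (2.44 ± 0.36) with LPS. In ENV-treated astrocytes Lcn2 rose from 17.3 to 987 CPM (5.83 ± 0.99) and the metalloreductase gene Steap4 from 2.09 to 105 CPM (5.6 ± 0.97), followed by Bcl3 (1.94 ± 0.33) and Fosl2 (1.55 ± 0.20), whereas Gfap, the astrocyte filament gene, fell from 5750 to 2070 CPM (-1.46 ± 0.21, adjusted p = 0.00316). The called gene in LPS-treated astrocytes was Fosl2 (1.47 ± 0.19). The other genes named for ENV there went the same way with LPS but were not called (edgeR adjusted p 0.0645 to 0.145). These were Lcn2 (5.36 ± 1.37), Steap4 (5.58 ± 1.6), Bcl3 (1.7 ± 0.56) and Gfap (-1.41 ± 0.49). Many genes of this list, Lcn2 among them, are also known targets of NF-kB, so the list does not read STAT3 alone.

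Of 13 other inhibitors and sheddases, 3 were higher and 1 lower with ENV in microglia. With LPS in microglia 2 and 2 were (3 and 2 with the block). In astrocytes 3 and 0 were with ENV (5 and 1 with the block) and 1 and 1 with LPS (4 and 1 with the block). The medians were 0.21, 0.11, 0.34 and 0.24. The 4 of 13 called in each microglial comparison without the block are close to the share of all genes (30.9% and 29.8%). Socs1, the other strong JAK inhibitor gene of the Socs family, rose by 2.77 ± 0.45 and 3.59 ± 0.51 in microglia with ENV and LPS and by 1.55 ± 0.37 in astrocytes with ENV, whereas Socs6 fell in microglia by 1.81 ± 0.22 and 1.54 ± 0.26, and Socs2 fell by 1.90 ± 0.53 with LPS. Socs4 rose in microglia by 0.95 ± 0.14 and 0.94 ± 0.13, and the phosphatase gene Ptpn6 with ENV by 0.74 ± 0.13. In astrocytes the phosphatase gene Ptpn2 rose by 0.73 ± 0.12 with ENV and 0.77 ± 0.12 with LPS, and the protease gene Adam10 fell by 0.41 ± 0.09 with LPS. Adam17, whose protease releases soluble IL-6 receptor, rose in ENV-treated astrocytes by 0.63 ± 0.14 (edgeR adjusted p = 0.019). Among 10 regulators of Il6 transcription and mRNA decay, 5 were higher and 1 lower, 4 and 0, 6 and 0, and 2 and 0 in the same order. With the block LPS-treated microglia had 3 and 0, against 30.3% of all genes called. ENV-treated astrocytes had 7 and 0 with the block, and LPS-treated ones 5 and 0. The medians without the block were 0.45, 0.88, 1.05 and 1.04. Zc3h12a, the gene of the Il6 mRNA nuclease Regnase-1, rose in all 4, by 1.09 ± 0.13, 2.08 ± 0.39, 2.94 ± 0.34 and 2.77 ± 0.43. Nfkbiz, the gene of the IkB-zeta cofactor, rose by 0.85 ± 0.17, 1.92 ± 0.57 and 3.5 ± 0.70 in the first 3, and Cebpb by 1.74 ± 0.17, 1.67 ± 0.27 and 2.22 ± 0.24. Arid5a, whose product stabilizes Il6 mRNA, rose with ENV in microglia (1.49 ± 0.18) and astrocytes (1.07 ± 0.19), and Nfkb1 in astrocytes with ENV (1.53 ± 0.19) and LPS (1.42 ± 0.22). Zfp36, a gene of mRNA decay, rose in LPS-treated microglia (1.17 ± 0.28), and Atf3 fell in ENV-treated microglia (-0.94 ± 0.20).

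The genes whose log2 CPM followed a member most closely over the 28 libraries were, for Il6, the neutrophil chemokine gene Cxcl3 (Pearson r = 0.963), Cemip2 (0.936) and the granulocyte growth factor gene Csf3 (0.932), among 12772 symbols. For Socs3 they were Upp1 (0.971), Sbno2 (0.960) and Nectin2 (0.939). For Lif they included Tmem33 (0.968) and Tpbg (0.964), and for Osmr they were C1s, Slc37a3 and Itga7 (0.985 each). Cxcl3 means went from 0.288 to 95.8 CPM with ENV and from 0.801 to 447 CPM with LPS in microglia, and from 3.81 to 264 CPM and 3.94 to 165 CPM in astrocytes. The libraries share 2 cell types and 8 groups, and these correlations describe that division as much as any change: Slc37a3 separates the cell types like Osmr but went from 83.4 to 86.7 CPM with ENV in astrocytes, where the Osmr mean went from 108.3 to 354.7 CPM. The Cxcl3 and Slc37a3 means are CPM without the TMM factor, over symbols in all tables, whereas the Osmr means hold that factor.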

How the data were processed

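Messenger RNA libraries (VAHTS Universal V6 with mRNA capture, from 150 ng total RNA, per the labels' protocols) were given by the authors as 28 deposited tables of whole-number counts per gene symbol, not normalized. Per the submitters' processing notes, the tools were HISAT2 and StringTie 1.3.3b and the assembly mRatBN7.2. No label states their settings, the annotation or the strand of counting, so reads of overlapping or antisense genes could not be told apart. Each sample was grouped by its labelled cell type and treatment.

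Each comparison used the edgeR 4.0.16 quasi-likelihood F test (R 4.3.3, limma 3.58.1; TMM, filterByExpr, robust fit, 2-sided) on its own groups, with Benjamini-Hochberg adjustment over all genes tested and calls at an adjusted p under 0.05. The cell type differences used symbols listed in both tables. CPM values are counts over the library total times a TMM factor (0.816 to 1.21 in microglia, 0.939 to 1.05 in astrocytes) computed over the 4 groups of a cell type. The correlations between genes, and the means of the correlated genes, used CPM over the symbols listed in all tables, without TMM. Standard errors are the log2 change over the square root of F. The fit was also run on simulated data with 200 changed genes. Those libraries were drawn independently of each other, so the run does not cover the shared deviations of same-numbered libraries. DESeq2 1.42.0, other size factors, no filter, leaving out libraries, a replicate block, a joint fit and replicate subsets were alternatives.

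Replicate numbers come from the sample titles. Same-numbered treated and vehicle libraries deviated together in every pair (correlations of 0.317 to 0.511 in microglia and 0.26 to 0.636 in astrocytes). LPS-treated astrocyte replicate 2 (0.529 with its own number) nonetheless correlated most with an H2O library of another number. The main fits held no replicate block and so ignored this pairing. Fits with the number as a block were an alternative, given where they change a call. No 2 libraries of a group agreed within sampling noise.

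The 10 members were reported whatever their result. From each pathway list, called genes were named, at most 5 per list and comparison, by size of change, and the 3 symbols of highest correlation with Il6, Lif, Osmr and Socs3; 1 of these symbols is not reported here. The STAT3 target genes named in ENV-treated astrocytes were also given with LPS, called or not. Members and lists were chosen with earlier results of these data known. Promoter sequences are RefSeq's (GRCr8), a later build than that of the counts.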

Additional observations from a re-analysis of the deposited data

Results flagged for a closer look

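Osmr in H2O-treated astrocytes had 1 library far from the others: replicate 1 held 86.11 CPM against 104.4 to 108 CPM in the other 3, a gap of 0.834 of the group's range. Chance flags about 1 in 20 groups of this size.

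Differences between microglia and astrocytes under the same stimulus passed the interaction test for 6 results. With ENV these were Il6st (-2.08), Il6r (-1.62) and Socs3 (3.90, as log2 change in microglia minus astrocytes), and with LPS Il6st (-1.79), Osmr (2.90) and Socs3 (6.01). In ENV-treated cells the Il6st change was negative in microglia (-0.89) and positive in astrocytes (1.18), and both were called.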

How the results depend on the processing

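The counts of called members that moved were few. In astrocytes with ENV, 5 became 0 with replicates 1 and 2 alone. In astrocytes with LPS, 3 became 6 with DESeq2, 6 with the replicate block, 6 in the joint fit and 5 with replicates 1 and 2 alone, and leaving out a library gave 1 to 3. The block gave 5 in place of 3 for both differences between cell types, and leaving out a library gave 1 to 3 for that of LPS. For the microglial vehicles, 0 became 2 with DESeq2 and 0 to 1 with a library left out. In single members, DESeq2 also called Clcf1 (0.0301) and Socs3 (0.0168) in ENV-treated astrocytes and the Il6 difference between cell types for LPS (0.00559; adjusted p). The block changed no call of a member beyond those given beside the results.

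Directions reversed for uncalled members. Lifr was -0.08 (ENV) and -0.26 (LPS) in astrocytes with replicates 1 and 2 alone, and Lif in the microglial ENV minus LPS difference was 0.60 with the replicate block. Leaving out a library gave, in microglia, Lifr -0.48 to 0.96 with ENV, and Osm -0.14 to 0.09 and Il6r -0.45 to 0.09 with LPS. In astrocytes it gave Lifr -0.07 to 0.29 with LPS. For ENV minus LPS it gave, in microglia, Il6 -2.14 to 1.67, Lif -0.84 to 1.68, Il6st -0.44 to 0.16, Il6r -0.38 to 0.14 and Lifr -2.62 to 7.08, and in astrocytes Osm -0.04 to 1.82, Clcf1 -0.39 to 0.04, Il6st -0.13 to 0.32, Il6r -0.29 to 0.47 and Lifr -0.07 to 0.31. For microglia minus astrocytes it gave Lifr -0.73 to 0.73 with ENV, and Lif -0.97 to 1.71, Osm -1.15 to 0.70 and Lifr -7.46 to 2.58 with LPS. For buffer minus H2O it gave Il6st -0.01 to 0.32 in microglia, and Il6 -0.80 to 0.01, Lif -0.31 to 0.11, Clcf1 -0.29 to 0.00, Il6r -0.10 to 0.36 and Socs3 -0.20 to 0.24 in astrocytes. The cause of these moves was not tested. Fits on replicates 1 and 2 or 3 and 4 alone follow a split seen in the LPS-, H2O- and ENV-treated astrocyte libraries themselves. They describe that split and support no call.

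Counts over all genes moved by over 1.5 times in astrocytes with ENV (2670; 4348 with the block, 372 and 950 with replicates 1 and 2 or 3 and 4 alone) and with LPS (785; 2049 with DESeq2, 2611 with the block, 1736 in the joint fit, 2970 with replicates 1 and 2 alone). Leaving out a library gave 2466 to 5282 (microglia, ENV; lowest without buffer replicate 2), 1351 to 3986 (microglia, LPS; lowest without H2O replicate 1), 1487 to 2869 (astrocytes, ENV; lowest without buffer replicate 3) and 236 to 681 (astrocytes, LPS; lowest without H2O replicate 3). The differences between cell types were 1998 genes for ENV (3314 with the block; 919 higher and 1079 lower, or 1062 and 902 with DESeq2 size factors) and 1656 for LPS (2720 with DESeq2, 3029 with the block; 707 higher and 949 lower, or 913 and 759 with DESeq2 size factors). Few reads limit Il11 in all groups, Osm in astrocytes, and Il6, Osmr and Lifr in unstimulated microglia.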
